A study of Mus musculus with 2 samples.

Results

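A set of 39 genes for cytokine, chemokine and adhesion receptors and their intracellular signalling partners was examined for Runx1 peaks in CD4+CD8+ double-positive (DP) thymocytes. The genes were chosen by name, and all 39 were found among the 22232 protein-coding gene symbols of the GENCODE annotation of NCBIM37 (mm9), the build of the deposited positions. They comprise 9 interleukin receptor genes, 5 interferon and TGF-beta receptor genes, 6 chemokine and sphingosine-1-phosphate (S1P) receptor genes, 11 genes for integrins and other adhesion molecules, and 8 genes that act downstream of cytokine receptors. Thymocytes were sorted from the thymus of C57BL/6 mice aged 4 to 6 weeks, without any treatment named in the labels. Sonicated chromatin was immunoprecipitated with 10 μg of anti-Runx1 antibody for 1 ChIP library, and 1 input library was made without antibody. Each library was amplified by 15 PCR cycles and sequenced on the SOLiD platform. The number of mice behind each library is not given in the sources used here. As each condition has 1 library, no difference could be tested between replicates, and all counts below describe these libraries.

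Runx1 is a DNA-binding factor of the RUNX family, which with its partner Cbfb recognises a short motif and acts as an activator or a repressor. DP thymocytes are the stage of T-cell development at which the antigen receptor is tested for selection. Cytokine receptors pass their signal through Jak kinases and Stat factors, which Socs proteins restrain, whereas chemokine receptors and integrins steer the movement of thymocytes between cortex and medulla and out of the thymus.

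There were 3531 Runx1 peaks, all but 1 of them 187 bp wide, and 740 input peaks of 171 bp. The authors gave each peak a score that the files leave undefined, so it served only to rank peaks within a list. Runx1 scores ran from 14 to 129 with a median of 18 and an upper quartile of 23, and many peaks are tied (1508 have a score of 16 and 640 a score of 18). The files give positions and scores without reads, so library depth is unknown. They hold no expression either, so the labelled cell type could not be checked against marker RNA.

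The sequences of the peaks that carry the results are given first, on the plus strand of NCBIM37 from 5′ to 3′. They are shown because they hold a RUNX motif and lie within 5 kb of a TSS, or are distal peaks with a score of 40 or more. Peaks within 5 kb that hold no motif, at Il4ra, Cxcr4 (score 16) and Selplg, are not shown. The limit of 40 and the choice of peaks with a motif were made after the values had been seen. Capitals mark the RUNX motif TGTGGT, or its variant TGCGGT, on either strand (read on the minus strand as ACCACA or ACCGCA). Where a peak overlaps an annotated UTR, only the 30 bases around the motif are given. The first set comes from Il21r and the chemokine receptor genes, which held the highest scores.
Il21r, intron, chr7:132750876-132751062, score 26: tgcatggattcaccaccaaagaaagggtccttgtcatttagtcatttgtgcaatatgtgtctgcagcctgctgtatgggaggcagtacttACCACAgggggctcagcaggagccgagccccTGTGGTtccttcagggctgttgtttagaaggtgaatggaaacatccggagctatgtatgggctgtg
Il21r, past the 3' end, chr7:132779052-132779238, score 73: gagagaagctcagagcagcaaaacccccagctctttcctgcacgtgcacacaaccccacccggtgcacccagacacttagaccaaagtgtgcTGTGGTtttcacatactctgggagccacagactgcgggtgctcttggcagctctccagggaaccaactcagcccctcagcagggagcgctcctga
Ccr7, past the 3' end, chr11:98997832-98998018, score 54: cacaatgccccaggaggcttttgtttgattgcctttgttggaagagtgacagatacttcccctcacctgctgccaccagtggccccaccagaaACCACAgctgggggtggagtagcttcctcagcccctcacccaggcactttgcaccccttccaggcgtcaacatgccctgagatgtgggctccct
Ccr7, around the motif of the TSS peak, chr11:99016478-99016507, score 26: aggtatgtgataACCACAttcggctgtcat
Ccr9, intron, chr9:123663566-123663752, score 51: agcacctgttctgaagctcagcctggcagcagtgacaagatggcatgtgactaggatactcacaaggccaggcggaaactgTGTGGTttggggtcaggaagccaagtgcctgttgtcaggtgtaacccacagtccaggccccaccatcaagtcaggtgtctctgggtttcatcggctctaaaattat
Ccr9, intron, chr9:123665949-123666135, score 51: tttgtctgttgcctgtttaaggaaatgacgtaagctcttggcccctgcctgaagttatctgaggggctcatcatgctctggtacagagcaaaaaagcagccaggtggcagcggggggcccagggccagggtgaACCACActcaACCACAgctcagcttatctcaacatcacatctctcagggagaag
Cxcr4, intron, chr1:130487879-130488065, score 28: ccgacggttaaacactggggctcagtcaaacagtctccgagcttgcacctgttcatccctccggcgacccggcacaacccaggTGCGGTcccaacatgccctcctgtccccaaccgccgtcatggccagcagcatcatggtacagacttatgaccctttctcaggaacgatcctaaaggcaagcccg

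The second set comes from the adhesion genes. It includes the 2 Selplg peaks with a motif, of the 3 that lie within 5 kb of its TSS.
Itgb2, upstream, chr10:76985119-76985305, score 42: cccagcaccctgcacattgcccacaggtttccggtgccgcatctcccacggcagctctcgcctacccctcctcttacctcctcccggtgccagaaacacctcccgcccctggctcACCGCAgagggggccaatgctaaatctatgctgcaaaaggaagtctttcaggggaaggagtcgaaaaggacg
Itgb2, around the motif of the TSS peak, chr10:76993110-76993139, score 18: tctttagacacaACCACAcagccagctggc
Cd97, intron, chr8:86260656-86260842, score 30: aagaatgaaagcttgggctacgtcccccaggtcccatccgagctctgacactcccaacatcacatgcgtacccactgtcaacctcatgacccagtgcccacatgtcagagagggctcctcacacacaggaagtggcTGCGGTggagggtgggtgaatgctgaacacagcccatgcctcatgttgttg
Selplg, around the motif of the TSS peak, chr5:114280439-114280468, score 18: ctgccagacactTGTGGTcccaatctgccc
Selplg, upstream, chr5:114282526-114282712, score 18: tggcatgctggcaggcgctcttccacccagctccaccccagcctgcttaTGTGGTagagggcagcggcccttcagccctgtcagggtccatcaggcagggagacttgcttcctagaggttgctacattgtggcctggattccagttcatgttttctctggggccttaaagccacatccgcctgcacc

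To assess where Runx1 peaks lay at these genes, each peak centre was placed in 1 of 3 classes per gene: within 5 kb of the TSS, elsewhere in the gene body, or outside the body within 50 kb of it. A Runx1 peak within 5 kb of the TSS was found at 7 of the 39 genes, or 17.9%, against 4.5% of the 22193 other protein-coding genes. These 7 genes were Il4ra, Il21r, Ccr7, Cxcr4, Itgb2, Cd97 and Selplg. A peak deeper in the body was found at 5 genes, or 12.8%, against 4.62% of other genes. A peak outside the body within 50 kb was found at 16 genes, or 41.0%, against 19.3%. By any of the 3 rules, 19 of the 39 genes had a peak, or 48.7%, against 25.8%. The other genes are all remaining protein-coding genes and were not matched to the set in expression, whose part in these differences was not tested. No set test was made, because the genes had been chosen with earlier results of these data known.

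**Figure D1:**
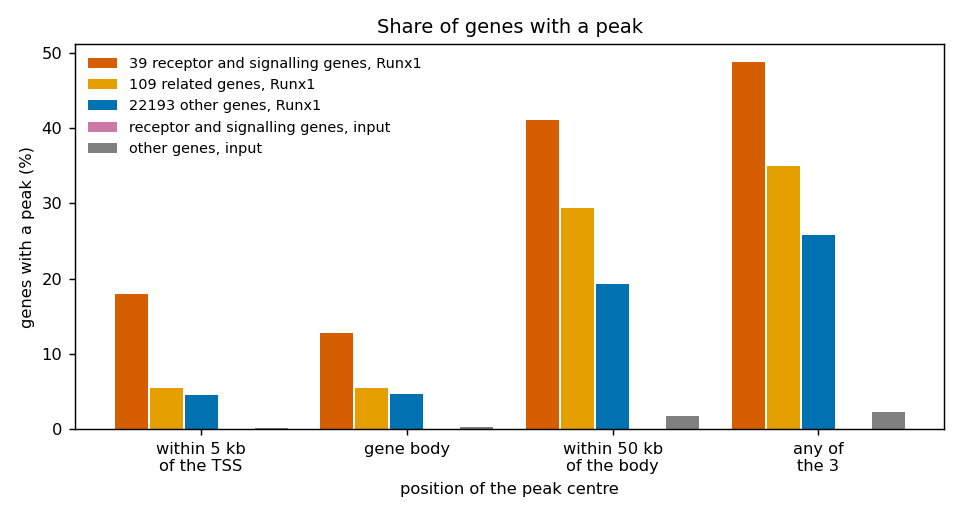
Percentage of genes (y axis) with a peak centre in each class of position (x axis) for the 39 receptor and signalling genes, 109 related genes and the 22193 other protein-coding genes, which include the related ones, in the Runx1 ChIP and input libraries. The bars of the 39 genes reach 17.9%, 12.8%, 41.0% and 48.7%, above those of the other genes in each class, and the 39 genes have no input peak.

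The input list held no peak at the 39 genes by any of these rules. Among the other genes, 0.207% had an input peak within 5 kb of the TSS, 0.365% in the body, 1.8% outside it within 50 kb and 2.25% by any rule. A count of 0 of 39 genes allows a share of up to 7.69% (3 counts of 39) or 9.03% (upper bound of the exact Clopper-Pearson 95% interval), limits that cover counting error only. The input peak nearest to a TSS of the set was 190 kb away, at Socs1. None of the Runx1 peaks assigned to the genes was overlapped by an input peak, as compared with 35 of all 3531. The lack of overlap follows from the lack of input peaks at these genes, so it is not a separate result.

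The 19 genes made 38 pairs of gene and peak from 36 different peaks, since 2 peaks were each assigned to both Il4ra and Il21r, which are neighbours. Introns held 18 of the 36 centres and exons 4, while the remaining 14 fell between protein-coding genes. The nearest protein-coding TSS belonged to 1 of the 39 genes for 25 peaks and to another gene for 11. Several genes had more than 1 peak: 9 of the 39 had at least 2 by any rule, against 6.27% of other genes, and 7 had at least 3 (Il6ra, Il21r, Ifnar1, Ccr7, Ccr9, Cxcr4 and Selplg), against 1.47%. Per length of sequence, the windows of 5 kb on each side of the TSS held 25.7 peaks per Mb at the 39 genes and 4.28 per Mb at other genes. Whole gene bodies held 10.9 and 1.62 per Mb. Unlike the body class above, they include the part within 5 kb of the TSS, so the densities share peaks. The median length of the gene body was 22.2 kb in the set and 15.5 kb among other genes.

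**Figure D2:**
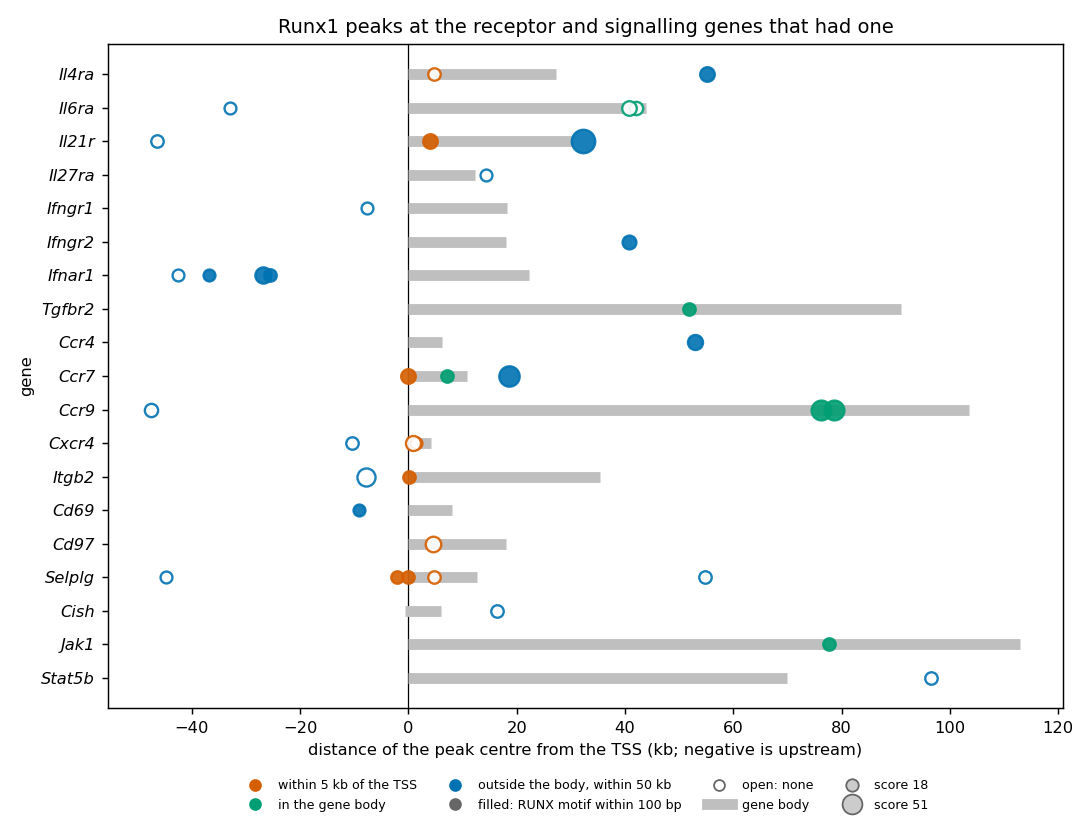
Runx1 peaks at the 19 genes that had one, by distance of the peak centre from the TSS in kb (x axis, negative upstream) and gene (y axis), where the area of a circle grows with the score, the colour gives the class, a filled circle has the RUNX motif within 100 bp and grey bars are gene bodies. Selplg shows 3 circles near its TSS, Ifnar1 a run of 4 circles upstream, and Ccr9 a pair of large circles in the body.

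Among the interleukin receptor genes, 4 of 9 had a peak by any rule, against 25.8% of other genes. Il4ra encodes the alpha chain of the IL-4 receptor and Il21r the IL-21 receptor, and the genes lie next to each other on chromosome 7. An intron of Il4ra held a peak with a score of 18, centred 4737 bp downstream of its TSS, without a RUNX motif within 100 bp. The Il21r peak with a score of 26 was intronic, 4026 bp past the Il21r TSS and 28.0 kb past the 3′ end of Il4ra. It held 3 copies of TGTGGT within 100 bp of its centre, 2 of them inside the peak, whereas 0.68% of all Runx1 peaks held 3 or more. The third peak of the locus had a score of 73, which only 20 of the 3531 Runx1 peaks exceeded. It lay outside genes, 2.06 kb past the 3′ end of Il21r and 32.2 kb downstream of its TSS, with a motif 2 bp from its centre. The 3 peaks of the locus spanned 78.8 kb.
Il6ra, which encodes the IL-6-binding chain, had a pair of peaks 1.34 kb apart near its 3′ end, with scores of 21 in an exon and 26 in an intron and no TGTGGT. Another Il6ra peak, with a score of 16, lay 33.0 kb upstream and 267 bp from the TSS of Atp8b2. The only peak of Il27ra, with a score of 16, lay 2.12 kb past its 3′ end in an exon of Palm3.

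Among the 6 genes of the common gamma chain family, Il4ra and Il21r had a peak by any rule, against 25.8% of other genes. No peak was found by these rules at Il7r, Il2ra, Il2rb or Il2rg, which encode the IL-7 receptor and the 3 chains of the IL-2 receptor. The peak nearest to the TSS was 199 kb away for Il7r, 84.6 kb for Il2ra, 69041 bp for Il2rb and 372 kb for Il2rg. Il6st, the signalling chain shared by the IL-6 family, had none within 488 kb. These distances do not show that Runx1 was absent, since enrichment below the level of a called peak cannot be seen in the lists.

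Of the interferon and TGF-beta receptor genes, 4 of 5 had a peak by any rule, against 25.8% of other genes, and 0 had one within 5 kb of the TSS, against 4.5%. Ifnar1, a chain of the type I interferon receptor, had 4 peaks upstream of its TSS within 17.2 kb, with scores of 16, 16, 33 and 18 in order of position. Only 0.451% of other genes had at least 4 peaks by any rule. The peak with a score of 33 lay 26.9 kb upstream of Ifnar1 with a motif 2 bp from its centre, and the next lay 1.26 kb away. The same 4 peaks were also within 50 kb of Il10rb and of Ifnar2, neighbouring receptor genes outside the set.
Ifngr1, a chain of the interferon-gamma receptor, had a peak with a score of 16 at 7652 bp upstream of its TSS, without a motif. Its partner chain Ifngr2 had a peak with a score of 23 at 22.7 kb past its 3′ end, in an intron of Tmem50b, with a motif 2 bp from the centre. Tgfbr2, the ligand-binding TGF-beta receptor, had a peak with a score of 18 in an intron, 51.9 kb downstream of the TSS, and a motif 4 bp from the centre. Tgfbr1 had no peak by these rules, and the nearest lay 121 kb from its TSS.

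Chemokine receptor genes held several of the highest scores of the set. Peaks were found by any rule at 4 of the 6 genes of this group, against 25.8% of other genes, and their median score was 27, against 18 over all Runx1 peaks. Ccr7 guides mature thymocytes to the medulla and naive T cells to lymph nodes. Its TSS peak, with a score of 26, had its centre 65 bp upstream of the TSS and a motif 36 bp from the centre. A body peak scored 18 was centred 7168 bp downstream, and another, scored 54, lay 18.5 kb downstream of the TSS, 7.58 kb past the 3′ end, with a motif 2 bp from its centre. The score of 54 was exceeded by 77 of the 3531 Runx1 peaks.
Ccr9 is the receptor for Ccl25, a chemokine of the thymus and gut. Its longest annotated transcript starts far upstream of the other TSSs of the gene, so a pair of its peaks was classed as lying in the body. These peaks, both with a score of 51, lay 2.38 kb apart, at 12.7 and 10.3 kb upstream of the nearest of its TSSs. The first held 1 TGTGGT and the second 2, and 83 of the 3531 peaks had a higher score. Another Ccr9 peak, with a score of 21, lay 47.5 kb upstream of the longest transcript, in an intron of Slc6a20b, without a motif.
Cxcr4, the receptor for Cxcl12 that acts at early thymocyte stages, had a pair of intronic peaks whose starts were 509 bp apart, 895 and 1404 bp downstream of its TSS, with scores of 28 and 16. At least 2 peaks within 5 kb of the TSS were found at 0.189% of other genes. Neither held TGTGGT within 100 bp, and the stronger held TGCGGT. A peak with a score of 18 lay 10.5 kb upstream of Cxcr4. The only peak assigned to Ccr4, with a score of 28 and 2 motifs, lay in an intron of Glb1, 46.8 kb past the 3′ end of Ccr4. Ccr8 and S1pr1, the receptor that draws mature thymocytes out of the thymus, had no peak by these rules, with the nearest at 197 and 1100 kb.

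**Figure D3:**
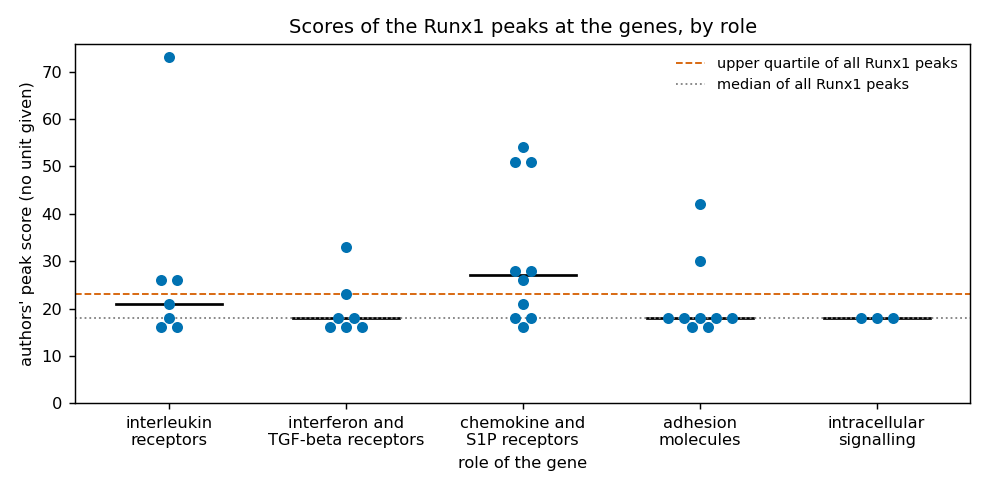
Scores given by the authors to the Runx1 peaks of the set (y axis, 1 point per peak) by role of the gene (x axis), with the median of each role as a black line and the median (18) and upper quartile (23) of all 3531 Runx1 peaks as dotted and dashed lines. The chemokine and S1P receptor genes have the highest median (27), and the 3 peaks of signalling genes are all at 18.

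Of the 11 adhesion genes, 4 had a peak by any rule, against 25.8% of other genes, and 3 had one within 5 kb of the TSS, against 4.5%. Selplg encodes PSGL-1, the selectin ligand on leukocytes, and had 5 peaks, a number reached by 0.117% of other genes. Of these, 3 lay within 5 kb of its TSS, at 4812 bp downstream, 3 bp upstream and 2109 bp upstream, each with a score of 18. At least 3 peaks within 5 kb of the TSS were found at 0.0% of the 22193 other genes, that is at none of them. With every annotated TSS of a gene counted, 2 other genes had as many, or 0.00901%, and with windows of 10 kb 5 other genes did, or 0.0225%. The peak at the TSS and the one upstream each held a motif, and the downstream one did not. The other two Selplg peaks lay in introns of Iscu and Coro1c, more than 40 kb from the gene.
Itgb2 encodes the beta chain of LFA-1 and the other leukocyte integrins. Its TSS peak, with a score of 18, lay in an exon, 128 bp downstream of the TSS of the longest transcript and 10 bp downstream of another, with a motif at its centre. The stronger Itgb2 peak, with a score of 42, lay 7785 bp upstream outside protein-coding genes, with TGCGGT and no TGTGGT, and its nearest TSS was that of 1810008A18Rik. Cd97, an adhesion G protein-coupled receptor, had a peak with a score of 30 in an intron, 4476 bp downstream of its TSS, also with TGCGGT and no TGTGGT. Cd69, an early activation antigen that opposes S1pr1 at the cell surface, had a peak with a score of 16 at 9192 bp upstream and a motif 78 bp from its centre.
No peak was found by these rules at Itgal, Itgae, Itga4, Itgb1, Itgb7, Cd44 or Icam2. Itgal encodes the alpha chain that pairs with Itgb2, and Itgae pairs with Itgb7 in the receptor for E-cadherin. The nearest peaks lay 77.8 kb from the TSS of Itgal, 71.0 kb from Itgae, 66.3 kb from Itgb7 and 560 kb from Cd44.

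Of the 8 signalling genes, 3 had a peak by any rule and 0 within 5 kb of the TSS, against 25.8% and 4.5% of other genes. All 3 peaks had a score of 18, the median of the whole list. Jak1, a kinase bound to many cytokine receptors, had an intronic peak 77.7 kb downstream of its TSS with a motif. Cish, a feedback inhibitor induced by Stat5, had a peak 10.3 kb past its 3′ end. The peak assigned to Stat5b lay 26.6 kb past its 3′ end in an intron of Kcnh4, and neither of these held a motif. The neighbouring Stat5a and Stat3 had no peak by these rules, nor had Socs1, Socs3 or Jak3. The peak nearest to the TSS was 58.6 kb away for Socs1, the smallest distance among the 20 genes with no peak, and the median over these 20 genes was 120.0 kb.

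The positions of the peaks near the limits of the classes were as follows. The centres closest to 5 kb from a TSS were those of Selplg at 4812 bp inside and of Ccr7 at 7168 bp outside. For the limit of 50 kb from a gene body, the centre at Ccr9 was the farthest inside, at 47.5 kb, and the closest outside lay 50394 bp from Itgb7. Counting only the gene with the nearest TSS left 15 of the 39 genes with a peak, or 38.5%, against 10.5% of other genes by the same rule. The 4 genes lost were Il27ra, Ifngr2, Ccr4 and Stat5b.

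Within 100 bp of their centres, 18 of the 36 peaks held the RUNX motif TGTGGT on one strand or the other, or 50%, against 26.5% of all 3531 Runx1 peaks. At the positions 1 kb to either side, it was found in 13.9% of 72 windows for the 36 peaks and in 14.6% for all peaks. The motif lay within 10 bp of the centre for 8 of the 18 peaks that had it, or 44.4%, against 19.1% of the 935 peaks with a motif in the whole list. These 8 were peaks of Il21r (2), Ifngr2, Ifnar1, Tgfbr2, Ccr7, Ccr9 and Itgb2. With TGCGGT counted too, the share was 58.3% of the 36 peaks and 33.6% of all peaks. The 3 peaks added by this variant were those of Cxcr4, Itgb2 and Cd97 whose sequences are given above.
Motifs of other thymocyte factors were searched in the same way. The ETS core (AGGAAG or CGGAAG) was found at 52.8% of the 36 peaks and 41.2% of all peaks, and in 27.8% and 25.2% of the windows 1 kb away. The E-box (CAGCTG or CAGGTG) was found at 47.2% and 41.3%, and 1 kb away in 29.2% and 24.2%. The GATA motif (AGATAA) was less frequent at the peaks, with 8.33% and 6.34%, than 1 kb away, with 13.9% and 11.9%. Of the 18 peaks with a RUNX motif, 11 (61.1%) also held the ETS core, against 48.8% of the 935 such peaks in the whole list. Among the peaks without a RUNX motif, the ETS core was found at 8 of 18 (44.4%) and at 38.4% in the whole list. A match is a description of the sequence only.

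**Figure D4:**
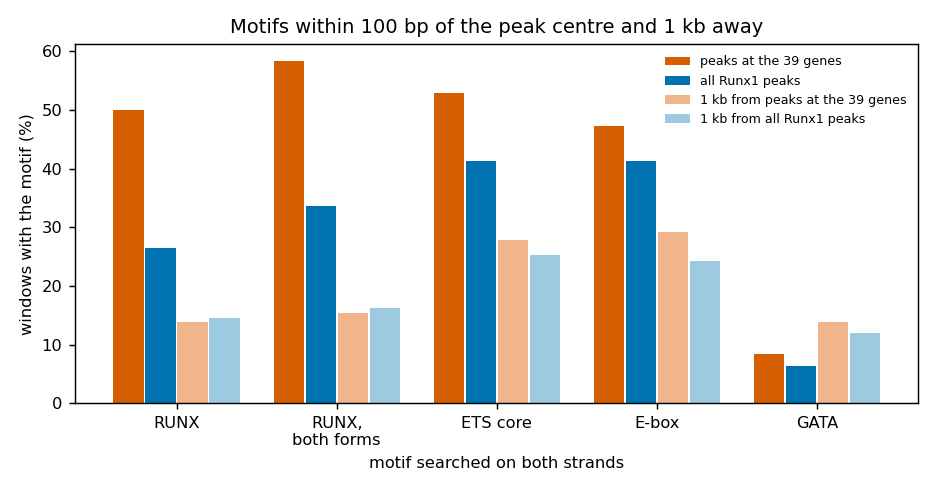
Percentage of windows with each motif (y axis) for the RUNX motif, the RUNX motif with its variant, the ETS core, the E-box and the GATA motif (x axis), within 100 bp of the peak centre and 1 kb away, for the 36 peaks at the 39 genes and for all 3531 Runx1 peaks. The RUNX motif was found at 50% of the 36 peaks and 26.5% of all peaks, and at 13.9% and 14.6% of the windows 1 kb away.

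The scores of the 36 peaks had a median of 18, the same as that of the whole list. A score of 23 or more was found for 36.1% of them and 29.0% of all peaks, and a score of 40 or more for 5 of them, or 13.9%, against 6.49%. The limit of 40 was set after the values had been seen, so the shares at that limit are a description only. The 5 were the peaks of Il21r (73), Ccr7 (54), Ccr9 (51 for both) and Itgb2 (42), and each lay more than 5 kb from the TSS. The 10 peaks within 5 kb of a TSS had scores from 16 to 30. Another Runx1 peak lay within 3 kb of 10 of the 36 peaks, or 27.8%, against 5.75% of all Runx1 peaks. These 10 peaks are a pair at each of Cxcr4, Ifnar1, Il6ra, Selplg and Ccr9, and both peaks of a pair are counted.

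A list of 109 further genes of the same families gave the level outside the chosen set. A peak within 5 kb of the TSS was found at 6 of them, or 5.5%, against 4.5% of the 22193 genes outside the set of 39. By any rule 38 had a peak, or 34.9%, against 25.8%. The cytokine receptor genes with a peak within 5 kb were Il12rb1 (score 30), Il17ra (37), Il20rb (16) and Acvr1 (16). The Il17ra peak lay 3622 bp downstream of the TSS with 3 copies of TGTGGT within 100 bp of its centre. Spn, which encodes the sialoglycoprotein CD43, had a peak with a score of 18 centred 18 bp upstream of its TSS. Its top score, 70, was that of a peak outside the body within 50 kb. Ptpn6, the phosphatase SHP-1, had a peak with a score of 33 at 2419 bp upstream. None of the 17 chemokine and S1P receptor genes of this list had a peak within 5 kb of the TSS, and 4 had one by any rule. The top scores of these 4 were 103 (Xcr1), 51 (Cxcr6), 18 (Cxcr5) and 16 (S1pr5). High scores were therefore not particular to the chemokine receptor genes of the set. Whether the Cxcr6 peak is also 1 of the Ccr9 peaks with that score was not examined.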

How the data were processed

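The data are 1 Runx1 ChIP library and 1 input library of DP thymocytes. The authors deposited peak positions with a score per peak for each library. The study's methods name HOMER at default settings for its comparison of transcription factor binding. They do not say whether the deposited lists come from that call. How peaks were called on input and the aligner of these libraries are not given in the sources used here. The catalogue number of the antibody differs between the labels and the study's methods. Starts were shifted to count from 1, and genes were those of the GENCODE annotation of NCBIM37 (mm9). Where a symbol had several genes, the longest was kept, and the TSS was that of the protein-coding transcript with the longest span. Sequences and motifs were read from NCBIM37. Shares are counts of genes or peaks with no test, and exact Clopper-Pearson 95% intervals were used to judge the alternatives and to bound a count of 0. The 39 genes, the further list and the classes were chosen with earlier results of these data known. All genes of the set are named, and related genes with a peak within 5 kb. FPKM were not used here. Counting was tested on simulated data. Python 3.11.15, numpy 2.4.6, pandas 2.3.3, scipy 1.17.1 and pysam 0.24.0 were used.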

Additional observations from a re-analysis of the deposited data

How the results depend on the processing

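The share of the 39 genes with a Runx1 peak was above that of the other genes in all 31 comparisons run (4 as reported and 27 alternatives). These comparisons reuse the same peak list and the same chosen genes, so they are not independent of each other. Removing peaks overlapped by input could not change the counts of the 39 genes, as none of their peaks was overlapped. With only peaks scored 23 or more, 28.2% of the 39 genes had a peak by any rule (other genes 7.85%), 17.9% one outside the body within 50 kb (5.76%), 5.13% one in the body (1.28%) and 10.3% one within 5 kb of the TSS (1.15%). With only peaks that hold TGTGGT, the values were 30.8% (8.42%) and 17.9% (6.07%), and 10.3% (1.52%) and 10.3% (1.18%) in the body and within 5 kb. With peaks scored 18 or more, the 4 shares in the same order were 41.0% (15.5%), 30.8% (11.4%), 12.8% (2.46%) and 17.9% (2.65%). With only the gene of the nearest TSS, 17.9% of the 39 genes had a peak outside the body within 50 kb (3.89%), and 38.5% one by any rule (10.5%). Outside the body within 25 kb and 100 kb the shares were 23.1% (10.2%) and 64.1% (33.3%). In place of 5 kb of the TSS, the share was 10.3% (2.78%) within 1 kb and 23.1% (6.52%) within 10 kb, and with any TSS it was 17.9% (5.1%). The RUNX motif share of the 36 peaks was 30.6% within 50 bp and 13.9% at positions 1 kb away. The cause of these changes was not tested, beyond the fewer peaks counted under the score and motif limits and the fewer or more bases under other distances. Of the 27 alternative shares of the 39 genes, 20 stayed within the wide 95% interval of the reported share and 7 did not, by any rule or outside the body within 50 kb. For the 22193 other genes, whose intervals are narrow, 8 stayed within and 19 did not. Leaving out a replicate was not possible with 1 library per condition, and depth was unknown. No paired analysis was possible because no comparison here rests on replicates.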
